A study of Mus musculus with 4 samples.

Results

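The genes followed in mouse thymocytes carry the classical MHC class I presentation pathway: H2-K1, H2-D1, B2m, Tap1, Tap2 and Tapbp. They were taken by symbol from the deposited tables and make up 6 of 22730 gene symbols, 8 of 28283 transcript rows and 228 of 1921627 junction rows. RNA came from total thymocytes of 2 mice labelled hnRNP L KO and 2 mice labelled wild type, with 1 library per mouse. hnRNP L is an RNA-binding protein that regulates pre-mRNA splicing. The labels give all 4 mice one mixed background, made up of C57BL/6 and CD45.1 stock, an LckCre transgene and the reporter allele Gt(ROSA)26Sortm4(ACTB-tdTomato,-EGFP)Luo. As background, the Lck promoter drives Cre in developing T cells, so other cells in the preparation need not lack the gene. The sources used here do not give the ages of the mice, which of them carried Cre or which exons were deleted.

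MHC class I molecules show peptides from inside the cell to CD8 T cells. A heavy chain, such as the K and D chains made from H2-K1 and H2-D1, pairs with the small light chain beta-2-microglobulin, made from B2m, and folds around a peptide. Peptides cut by the proteasome enter the endoplasmic reticulum through the transporter TAP, a pair of the Tap1 and Tap2 proteins, and tapasin, the product of Tapbp, holds an empty class I molecule next to it. In the thymus, class I on epithelial cells selects CD8 T cells, and thymocytes themselves gain surface class I as they mature.

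Mapped reads numbered 69061265 and 75485061 in KO replicates 1 and 2, and 99782558 and 122619310 in wild-type replicates 1 and 2, and 3302915 to 6146421 reads per library fell on junctions. Hnrnpl, the targeted gene, had 467 and 208 TMM-scaled CPM (reads scaled to library size) in the KOs, against 854 and 813 CPM in the wild types, so 56.0% and 25.0% of the wild-type mean remained. All 8 markers of thymocytes were detected in each library, as were markers of B, myeloid, erythroid and stromal cells. KO replicate 1 stood apart in sex-linked RNA, with 4116 reads of Ddx3y, a Y-linked gene, against 1 to 17 in the other 3 libraries, and 222 reads of Xist, against 57852 to 87390. Nothing in the labels says more of the replicates than that they are separate mice, and with 2 a group the p-values rest on little replication.

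All but B2m lie in the MHC region of chromosome 17. In mm9, the build of the files, H2-K1 (NM_001001892, 8 exons, minus strand) spans chr17:34132957-34137278 and H2-D1 (NM_010380, 8 exons, plus strand) spans chr17:35400039-35404442. Tapbp (NM_001025313, 8 exons) spans chr17:34056423-34066235, Tap1 (NM_013683, 11 exons) chr17:34324501-34334170 and Tap2 (NM_011530, 12 exons) chr17:34341424-34353266, all on the plus strand. B2m (NM_009735, 4 exons) lies apart on the plus strand at chr2:121973423-121978818. Tap1 starts 225 bases from Psmb9 and ends 969 bases from Psmb8, which lies 3024 bases from Tap2; both neighbours encode proteasome subunits.

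The promoters of H2-K1, H2-D1 and B2m are shown because the 2 heavy chains were the members whose KO values lay furthest below the wild types, and B2m encodes their partner. Each line holds the 250 bases before the RefSeq start in GRCm38.p6, read along the gene's strand: chr17:34000334-34000583, minus strand, for H2-K1, chr17:35262844-35263093, plus strand, for H2-D1, and chr2:122147437-122147686, plus strand, for B2m. H2-K1 has 2 entries, of which the one farthest downstream is shown. Capitals mark matches on either strand to 5 motifs: the NF-kB type (GGG, any 2 bases, TT, any base, CC), GAANNGAAA (interferon regulatory factor type), TGACG (core of the X2 box), ATTGG (core of the Y box, CCAAT on the other strand) and TATAAA.
H2-K1: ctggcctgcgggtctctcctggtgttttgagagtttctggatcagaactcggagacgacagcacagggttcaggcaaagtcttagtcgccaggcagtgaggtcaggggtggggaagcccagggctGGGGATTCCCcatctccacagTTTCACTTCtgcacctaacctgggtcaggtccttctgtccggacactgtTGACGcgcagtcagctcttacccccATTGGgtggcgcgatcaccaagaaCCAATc
H2-D1: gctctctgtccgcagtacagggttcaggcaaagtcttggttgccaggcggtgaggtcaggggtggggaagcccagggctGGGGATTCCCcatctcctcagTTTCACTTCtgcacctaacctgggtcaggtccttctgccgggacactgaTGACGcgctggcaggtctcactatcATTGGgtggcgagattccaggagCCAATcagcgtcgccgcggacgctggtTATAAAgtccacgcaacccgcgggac
B2m: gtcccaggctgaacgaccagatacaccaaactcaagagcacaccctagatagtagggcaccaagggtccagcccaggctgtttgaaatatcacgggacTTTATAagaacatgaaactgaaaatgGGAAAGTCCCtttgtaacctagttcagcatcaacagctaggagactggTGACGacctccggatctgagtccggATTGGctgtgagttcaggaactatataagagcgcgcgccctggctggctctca

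The 2 heavy-chain promoters hold the first 4 motifs in the same order, with the NF-kB-type match at -125 in H2-K1 and -171 in H2-D1 counted from the start, and the interferon-type match on the minus strand at -104 and -150. Their aligned bases were 87.2% identical over 203 positions. B2m holds the NF-kB-type match at -126 on the minus strand, the X2 core at -78 and the Y core at -53. It does not hold the exact letters GAANNGAAA, and its TATAAA match lies on the minus strand. Its line does hold the similar strings gaaactgaaa, shortly before the NF-kB-type match, and tatataag, nearer the start, which the letters searched do not match. Tap1 holds the X2 and Y cores alone, and Tapbp the Y core alone. Among all 27025 mouse promoters of this length, the NF-kB type occurred in 4.00%, GAANNGAAA in 6.34%, TGACG in 17.9%, ATTGG in 34.5% and TATAAA in 13.0%. All of the first 4 occurred in 9 promoters, or 0.0333%, and 4 of the 9 were class I heavy chains: H2-K1, H2-D1, H2-Q4 and H2-Q7. Matches of letters do not show binding.

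The members were abundant and kept one order in each of the 4 libraries. By RPKM, the authors' value of reads scaled by transcript length and mapped reads, B2m was highest, followed by H2-K1, H2-D1, Tap2, Tap1 and Tapbp. B2m had 167 and 163 RPKM in the KOs, against 162 and 179 RPKM in the wild types, and ranked between 65 and 142 among all genes in each library. H2-K1 had 65.9 and 40.0 RPKM in the KOs, against 82.2 and 78.4 RPKM in the wild types, and H2-D1 had 50.1 and 34.7 RPKM, against 56.6 and 55.2 RPKM. In KO replicate 2 the levels of the neighbours in this order came closer: H2-K1, H2-D1 and Tap2 stood at 40.0, 34.7 and 32.4 RPKM.

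Tap2 had 32.9 and 32.4 RPKM in the KOs, against 33.1 and 34.0 RPKM in the wild types, and Tap1 had 21.8 and 19.9 RPKM, against 22.2 and 22.8 RPKM. Tapbp, the lowest, had 13.8 and 13.5 RPKM in the KOs, against 10.8 and 12.1 RPKM in the wild types. In the wild types each step of the order was larger than the range of its neighbours; in the KOs, H2-K1 and H2-D1 were the neighbours whose ranges overlapped.

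**Figure D1:**
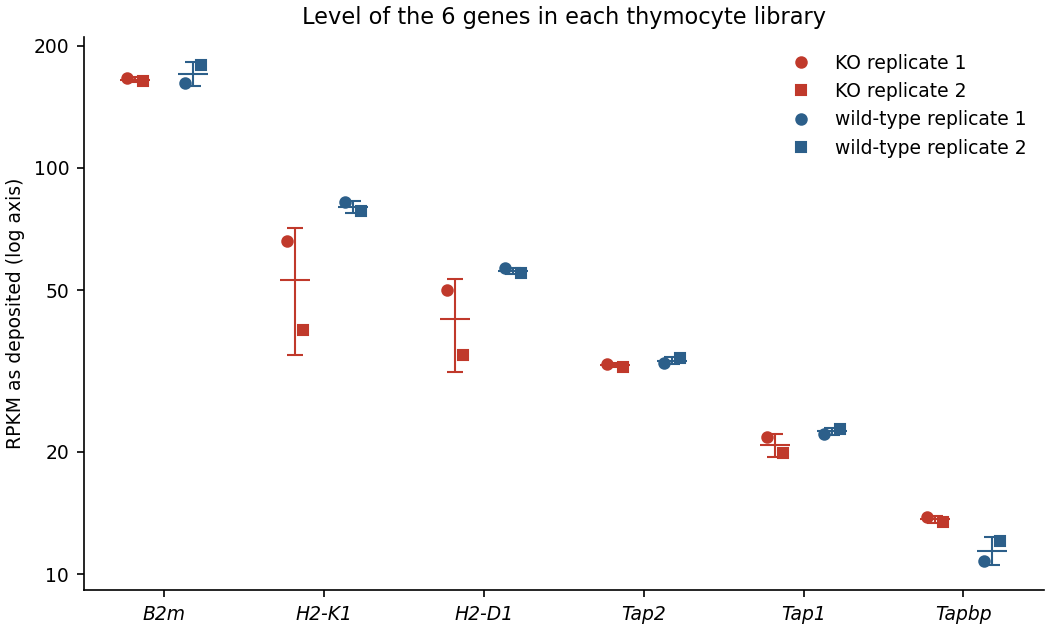
RPKM as deposited (log axis) of the 6 genes, ordered by wild-type level, with KO replicates 1 and 2 in red and wild-type replicates 1 and 2 in blue; the dash and bar are the mean and SD of 2 libraries. H2-K1 and H2-D1 spread widest in the KOs, at 53.0 ± 18.3 and 42.4 ± 10.9 RPKM, against 80.3 ± 2.74 and 55.9 ± 0.947 RPKM in the wild types.

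The question asked of each gene was whether its RNA differed between KO and wild-type thymocytes. No member passed edgeR's quasi-likelihood test at an adjusted p of 0.05, a threshold that 0.00728% of the 13733 genes tested passed (1 gene, higher in the KO). Hnrnpl, the targeted gene, did not pass either, with a log2 fold change of -1.30 and an edgeR adjusted p of 0.486. Not passing this test therefore does not show that a gene was unchanged. H2-K1 was the 1 member with an unadjusted p under 0.05, as 9.9% of all genes had, and none of the 6 was called by DESeq2 or limma-voom. Both KOs lay below both wild types for 3 members (H2-K1, H2-D1 and Tap1), a pattern that 21.4% of all genes showed, and above them for 1 member (Tapbp), as 23.3% of genes did. The median log2 fold change of the members was -0.08, beside 0.01 over all genes tested.

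H2-K1, the K heavy chain, had 271 and 161 CPM in the KOs, against 347 and 310 CPM in the wild types. The groups did not overlap, but KO replicate 1 stood at 82.6% of the mean of the wild types, and KO replicate 2 at 48.9%. Its log2 fold change was -0.61 with a standard error (SE) of 0.25, with an edgeR adjusted p of 0.501. Both KO libraries bear on this value: without KO replicate 1 it was -1.04 with an edgeR adjusted p of 0.0189, and without KO replicate 2 it was -0.28, the adjusted p ranging from 0.0189 to 0.998 over the 4 libraries left out in turn. Where a group keeps 1 library, the fit takes that library's spread from the other group.

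H2-D1, the D heavy chain, followed the same pattern at a smaller size. It had 218 and 147 CPM in the KOs, against 252 and 230 CPM in the wild types, again with no overlap and with KO replicate 2, at 60.9% of the wild-type mean, below KO replicate 1, at 90.2%. The log2 fold change was -0.40 (SE 0.19) with an edgeR adjusted p of 0.515. Without KO replicate 1 it was -0.72, and without KO replicate 2 it was -0.15. The 2 heavy chains are near-copies, 90.7% identical over 1581 aligned transcript bases. Reads that fit both may be given to the wrong gene or lost at the mapping quality limit, which was not tested. Of all 50-base windows, 8.79% in H2-K1 and 14.3% in H2-D1 also occur in a transcript of another gene (GENCODE M21), against none in B2m, and H2-K1 and H2-D1 share 109 windows.

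B2m, the light chain, did not separate the groups. It had 357 and 342 CPM in the KOs, against 356 and 369 CPM in the wild types, with a log2 fold change of -0.05 (SE 0.12) and an edgeR adjusted p of 0.885. Set against B2m within each library, which needs no scaling between libraries, reads of H2-K1 stood at 0.759 and 0.469 of those of B2m in the KOs, against 0.973 and 0.840 in the wild types. H2-D1 reads stood at 0.609 and 0.430 of B2m reads in the KOs, against 0.706 and 0.625 in the wild types. Both ratios lay lower in both KOs, and lowest in KO replicate 2. H2-K1 over H2-D1 was 1.25 and 1.09 in the KOs, against 1.38 and 1.34 in the wild types, so the K chain stood lower relative to the D chain as well. With 2 mice against 2, an exact permutation test cannot give a two-sided p under 0.33, and the ratios were not tested.

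Tap1 and Tap2, the chains of the peptide transporter, differed little. Tap1 had 161 and 143 CPM in the KOs, against 168 and 162 CPM in the wild types, a log2 fold change of -0.12 (SE 0.12) with an edgeR adjusted p of 0.722. KO replicate 1 lay just below the lower wild type, and KO replicate 2 further below. Tap2 had 205 and 197 CPM in the KOs, against 211 and 203 CPM in the wild types, a log2 fold change of -0.04 (SE 0.11) with an edgeR adjusted p of 0.901, and its groups overlapped. Tap2's sign turned under upper-quartile scaling, where its log2 fold change was 0.0073. Reads of Tap1 over those of Tap2 came to 0.784 and 0.725 in the KOs, against 0.795 and 0.794 in the wild types.

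Tapbp, which encodes the loading factor tapasin, was the 1 member higher in both KOs. It had 95.2 and 90.2 CPM in the KOs, against 76.1 and 79.8 CPM in the wild types, so both KOs lay above both wild types and close together. The log2 fold change was 0.25 (SE 0.11) with an edgeR adjusted p of 0.501, and it ranged from 0.20 to 0.29 with 1 library left out. Reads of Tapbp over those of Tap1 came to 0.592 and 0.632 in the KOs, against 0.454 and 0.494 in the wild types. Of the 6 ratios of members examined, this was the 1 that stood higher in both KOs.

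**Figure D2:**
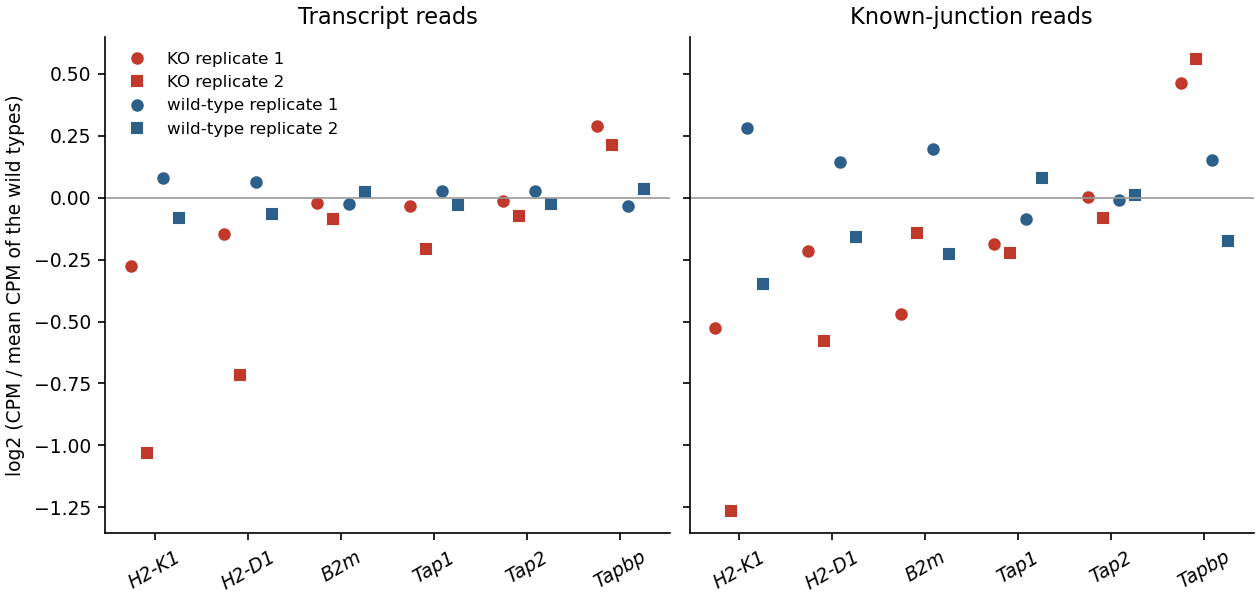
Each library's CPM relative to the wild-type mean, on a log2 scale, for transcript reads (left) and for reads on known junctions (right), with KOs in red and wild types in blue. KO replicate 2 holds the lowest H2-K1 and H2-D1 values in both panels, and both KOs lie above both wild types for Tapbp.

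**Figure D3:**
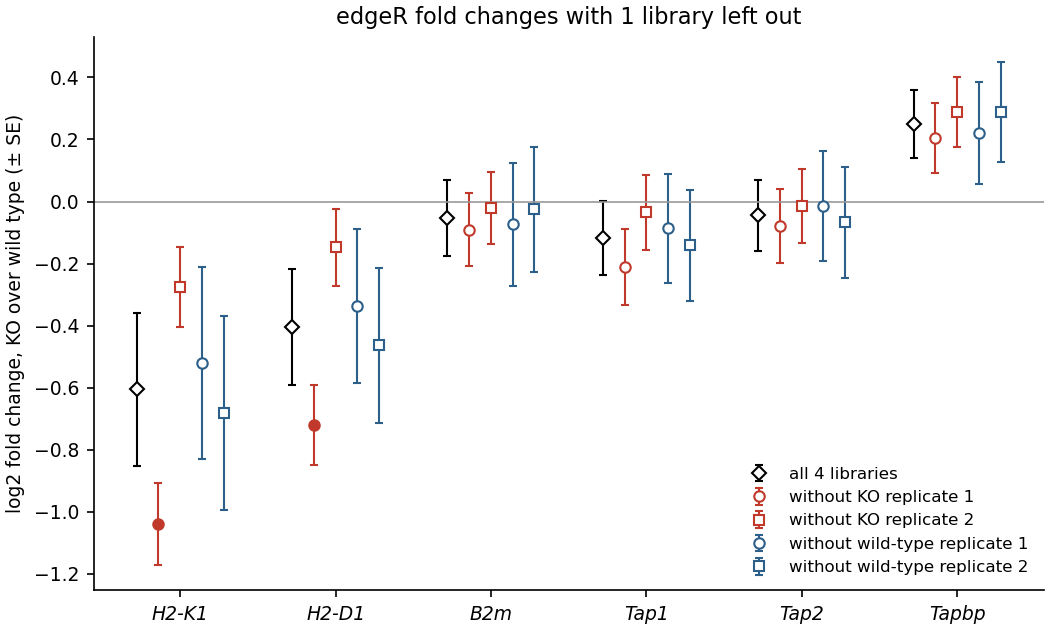
edgeR log2 fold changes, KO over wild type, with their SE as bars, for all 4 libraries (diamonds) and with each library left out; filled symbols have an adjusted p under 0.05. H2-K1 ranges from -1.04 to -0.28 and H2-D1 from -0.72 to -0.15. The filled symbols belong to fits without KO replicate 1, which keep 1 KO library and take its spread from the wild types, so they are not read as calls.

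Reads on known splice junctions, which the authors counted in separate tables, gave another reading of the same libraries. By edgeR on 9939 genes, no member was called (background 0.0302%, 3 genes) and 3 members, H2-K1, H2-D1 and Tapbp, had an unadjusted p under 0.05, as 8.8% of genes did; limma-voom called none of the 6 either. Both KOs lay below both wild types for H2-K1, H2-D1 and Tap1 (19.2% of genes) and above for Tapbp (19.7% of genes), the same 4 members as with transcript reads.

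H2-K1 had 905 and 593 known-junction reads in the KOs, against 2255 and 1872 in the wild types, and a log2 fold change of -0.85 (SE 0.26) with an edgeR adjusted p of 0.434. The fold change was -1.27 without KO replicate 1, -0.53 without KO replicate 2, -0.50 without wild-type replicate 1 and -1.13 without wild-type replicate 2. H2-D1 had 936 and 793 junction reads in the KOs, against 1707 and 1780 in the wild types, a log2 fold change of -0.39 (SE 0.17) with an edgeR adjusted p of 0.537, and -0.59 without KO replicate 1, -0.22 without KO replicate 2 and -0.23 without wild-type replicate 1. B2m had 341 and 467 junction reads in the KOs, against 769 and 737 in the wild types, a log2 fold change of -0.29 (SE 0.18) in overlapping groups. With 1 library left out it ran from -0.49 (without wild-type replicate 2) to -0.07 (without wild-type replicate 1), with -0.15 without KO replicate 1 and -0.47 without KO replicate 2.

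Tapbp had 275 and 321 junction reads in the KOs, against 316 and 324 in the wild types, whose libraries were deeper. Its log2 fold change on junction reads was 0.51 (SE 0.19) with an edgeR adjusted p of 0.472, larger than the 0.25 of transcript reads, and it ranged from 0.35 to 0.68 with 1 library left out. Tap1 stood at -0.21 (SE 0.17) and Tap2 at -0.04 (SE 0.16) on junction reads, beside -0.12 and -0.04 on transcript reads. The ratios of H2-K1 and of H2-D1 to B2m, which separated the groups on transcript reads, overlapped on junction reads: H2-K1 over B2m was 2.65 and 1.27 in the KOs, against 2.93 and 2.54 in the wild types. H2-D1 over B2m was 2.74 and 1.70 in the KOs, against 2.22 and 2.42 in the wild types.

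The splicing of the members was examined next, since hnRNP L acts on splicing. Of 46 member junctions tested for usage relative to the rest of their gene, edgeR's diffSpliceDGE called none and none had an unadjusted p under 0.05; over all 95139 junctions 0.0042% (4 junctions) were called and 2.55% had an unadjusted p under 0.05. limma's diffSplice on voom weights called none of the 46 either. The smallest p among the members, 0.0553, belonged to the H2-D1 junction from exon 1 to 2, with 112 and 105 reads in the KOs, against 377 and 267 in the wild types. That junction held 12.0% and 13.2% of the gene's known-junction reads in the KOs, against 22.1% and 15.0% in the wild types, a log2 usage change of -0.60. The exact 95% interval of wild-type replicate 2 (13.4% to 16.7%) overlapped those of KO replicate 1 (9.96% to 14.2%) and KO replicate 2 (10.96% to 15.8%), while that of wild-type replicate 1 (20.1% to 24.1%) lay above all of these.

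Reads were uneven along each member; the junctions compared here are the known ones with reads, which leaves out the 1 in Tap1 that had none. The H2-K1 junction from exon 7 to 8 was its highest, with 438 and 275 reads in the KOs, against 1367 and 900 in the wild types, and the junction from exon 1 to 2 its lowest, with 184 reads in all. Exon 7 to 8 held 48.4% and 46.4% of the known-junction reads of H2-K1 in the KOs, against 60.6% and 48.1% in the wild types, so wild-type replicate 1 stood apart from the other 3. That library also had the largest share of gene reads on small RNAs, with 2.13% and 1.13% in the KOs, against 8.21% and 1.44% in the wild types, whose part in the junction values was not tested. In H2-D1 the highest was exon 3 to 4, with 2197 reads in all, and the lowest exon 2 to 3, with 190.

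In B2m exon 1 to 2 was the highest (1751 reads in all) and exon 3 to 4 the lowest (112), and in Tap1 exon 3 to 4 was the highest (283) and exon 1 to 2 the lowest (13). In Tap2 the highest was exon 7 to 8 (1127) and the lowest exon 9 to 10 (89), and in Tapbp the highest was exon 7 to 8 (390) and the lowest 1 of its 2 exon 6 to 7 junctions (22). From highest to lowest the junctions of a member differed by 11.6 to 21.8 times. The internal exons of the heavy chains match in length in 5 of 6 places, and exons 2 to 10 of Tap1 match exons 3 to 11 of Tap2 in 8 of 9.

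**Figure D4:**
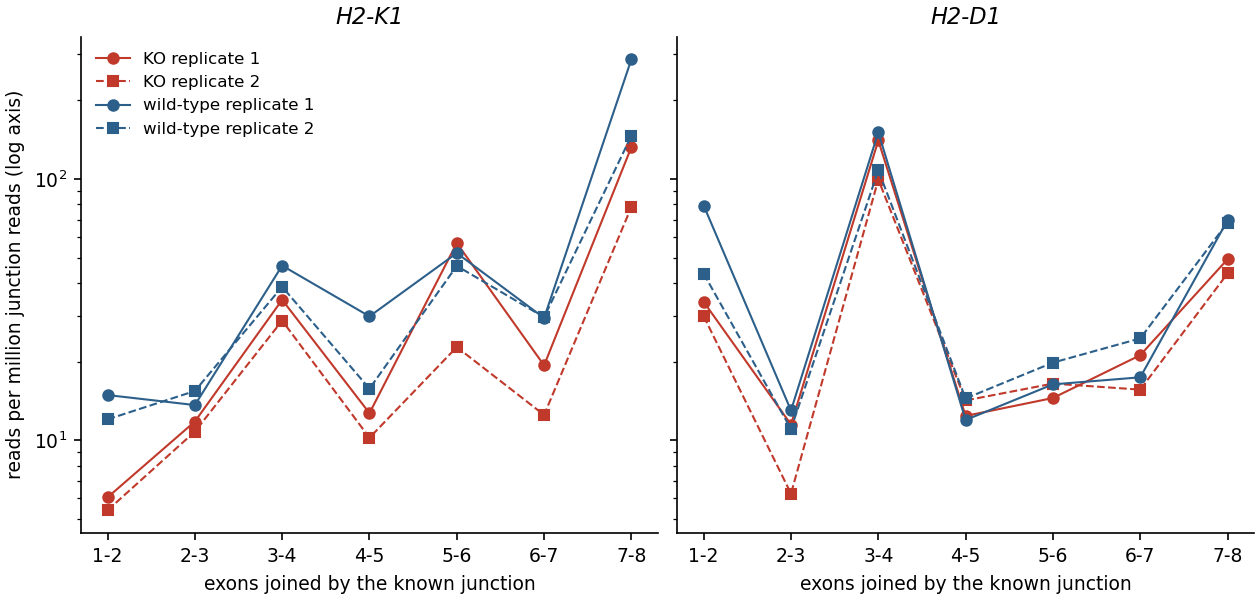
Reads on each known junction of H2-K1 and H2-D1, scaled to the junction reads of the library (log axis), named by the exons joined, with KOs in red and wild types in blue. Exon 7 to 8 is the highest H2-K1 junction and exon 3 to 4 the highest H2-D1 junction in each of the 4 libraries.

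Unannotated splicing of the members was rare. Of 181 putative junctions, 20 had a read and none reached 10 reads over the 4 libraries. Putative junctions held 1 of 3509 and 4 of 3271 member junction reads in the KOs (0.0285% and 0.122%), against 8 of 6574 and 14 of 6772 in the wild types (0.122% and 0.207%). The exact 95% intervals, 0.000722% to 0.159% and 0.0333% to 0.313% in the KOs, overlapped those in the wild types, 0.0526% to 0.240% and 0.113% to 0.347%. These intervals cover counting error only.

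Tap1 and Tapbp each have a second annotated transcript. The shorter Tap1 form (NM_001161730) lacks 84 bases inside exon 6, and the junction that removes them had 0 reads in each library. Against 42 and 49 reads on the exon 6 to 7 junction in the KOs, and 59 and 106 in the wild types, a count of 0 allows the shorter form up to 7.14% and 6.12% in the KOs and up to 5.08% and 2.83% in the wild types. Against the exon 5 to 6 junction on the other side, with 19 and 18 reads in the KOs and 19 and 20 in the wild types, it allows up to 15.8% and 16.7% in the KOs and up to 15.8% and 15.0% in the wild types. Reads found only in the longer form, over the 84 bases, numbered 105 and 138 in the KOs, against 204 and 244 in the wild types. Per base, this came to 0.830 and 1.10 times the transcript's own density in the KOs, against 1.10 and 1.04 times in the wild types.

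The 2 Tapbp forms differ by 3 bases at the start of exon 7, where acceptors lie side by side. The transcripts across that boundary are shown because the 2 forms are told apart there in the junction reads, with the 3 added bases in capitals (GENCODE M21 transcripts, GRCm38).
NM_001025313: taggctggctggTAGctgcctact
NM_009318: taggctggctggctgcctact
The upstream acceptor, which keeps the 3 bases, had 12 of 24 and 6 of 9 reads in the KOs, against 6 of 11 and 2 of 4 in the wild types. Its share was 50.0% and 66.7% in the KOs, against 54.5% and 50.0% in the wild types. Over the 2 libraries of a group the share was 54.5% in the KOs, with an exact 95% interval of 36.4% to 71.9%, and 53.3% in the wild types, with an interval of 26.6% to 78.7%, so both forms were present and no difference was detectable at this depth.

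The rest of the pathway was read from lists of genes by role, beside all genes tested, of which 7022 had a positive and 6711 a negative log2 fold change. No gene of the 102 tested in 6 pathway lists passed the edgeR test at an adjusted p of 0.05, and 8 (7.84%) had an unadjusted p under 0.05, beside 0.00728% and 9.9% of all genes; DESeq2 and limma-voom called none of them either. The list of other class I heavy chains also holds class I-like genes, such as Fcgrt, Hfe and Procr. Of 21 of its genes tested, 7 lay higher and 14 lower, with a median of -0.07. The median was -0.24 without KO replicate 1, where H2-T23 of this list stood at a log2 fold change of -0.60, and turned to 0.06 without KO replicate 2. H2-T23, which encodes the non-classical heavy chain Qa-1, had 61.2 and 44.5 CPM in the KOs, against 68.9 and 65.8 CPM in the wild types, and a log2 fold change of -0.35 with an edgeR adjusted p of 0.505. Hfe, a class I-like protein of iron metabolism, had 3.26 and 4.17 CPM in the KOs, against 2.47 and 1.98 CPM in the wild types, a log2 fold change of 0.74 (SE 0.29) with an edgeR adjusted p of 0.486.

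Of 12 peptide-loading and folding partners, 10 lay higher and 2 lower, with a median of 0.11. It was 0.20 without KO replicate 1, 0.06 without KO replicate 2, 0.07 without wild-type replicate 1 and 0.21 without wild-type replicate 2. Tapbpl, a tapasin relative that edits the bound peptide, had 48.5 and 50.6 CPM in the KOs, against 39.5 and 38.7 CPM in the wild types, and a log2 fold change of 0.34 (SE 0.11) with an edgeR adjusted p of 0.452. Like Tapbp, its KO values lay close together above both wild types. The chaperones Calr, Canx and Pdia3 stood at log2 fold changes of 0.09, 0.11 and 0.12, and Erap1, the peptidase that trims peptides in the endoplasmic reticulum, at 0.01, in overlapping groups.

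Of 22 genes of the proteasome and peptide supply, 5 lay higher and 17 lower, with a median of -0.11, or -0.07 without wild-type replicate 1. Psmb8, an immunoproteasome subunit that neighbours Tap1 and Tap2, had 346 and 337 CPM in the KOs, against 391 and 393 CPM in the wild types, a log2 fold change of -0.20 (SE 0.12) with an edgeR adjusted p of 0.571. Psmb9, the neighbour on the other side of Tap1, had 48.7 and 51.9 CPM in the KOs, against 52.8 and 50.4 CPM in the wild types, in overlapping groups. Of 25 factors listed as acting on class I promoters, 11 lay higher and 14 lower, with a median of -0.05 that turned to 0.07 without KO replicate 2 and stood at -0.21 without KO replicate 1 and -0.09 without wild-type replicate 1. Nlrc5, the class I transactivator, had 87.6 and 58.7 CPM in the KOs, against 66.0 and 73.9 CPM in the wild types, so KO replicate 1 was the highest library and KO replicate 2 the lowest.

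MHC class II genes and their partners had 8 of 11 higher and 3 lower, with a median of 0.07 that turned to -0.15 without KO replicate 1 and to -0.08 without wild-type replicate 2, and stood at 0.24 without KO replicate 2 and 0.26 without wild-type replicate 1. The list of class I receptors mixes the CD8 chains with receptors of natural killer and myeloid cells. Binding to class I was not checked for each gene. Of 11 tested, 9 lay higher and 2 lower, with a median of 0.25. It was 0.38 without wild-type replicate 1, with 7 of 11 higher, and 0.13 without wild-type replicate 2. Klrd1 and Klrc1, which encode the chains of a natural killer receptor for Qa-1, led this list at low levels. Klrd1 had 6.95 and 3.65 CPM in the KOs, against 3.005 and 3.16 CPM in the wild types, and Klrc1 had 15 and 10 reads in the KOs, against 3 and 8 reads in the wild types.

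**Figure D5:**
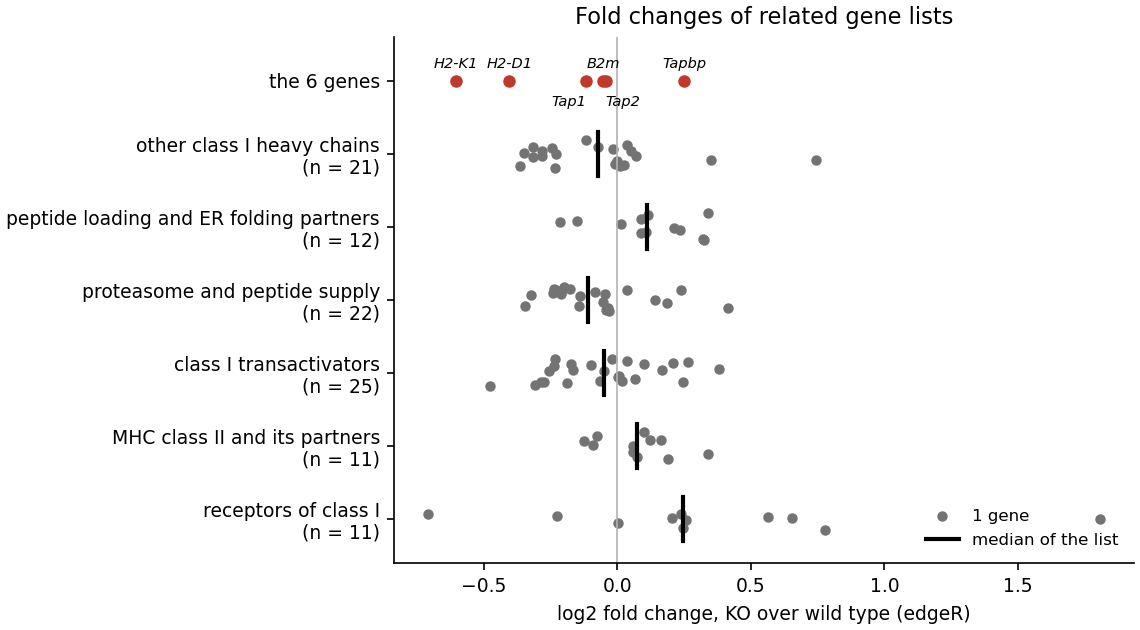
edgeR log2 fold changes, KO over wild type, of the 6 genes (red, top) and of 6 lists of related genes (grey points, 1 gene each, with the median as a black bar). Medians lie between -0.11 (proteasome and peptide supply) and 0.25 (receptors of class I), and H2-K1 at -0.61 lies below the genes of the other heavy-chain list.

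The profiles most like the members' were ranked over 8877 genes with a mean of at least 10 CPM, by distance from the mean centred profile of H2-K1, H2-D1 and B2m over 4 libraries. H2-T23 was nearest, at a distance of 0.0149 in log2 units, followed by Immp1l, Hspa4l, Tnfrsf1a and Limd2, at 0.0193 to 0.0300. H2-T23 is also among the genes that share 50-base windows with H2-K1, and the part of shared sequence in this likeness was not tested. With 4 points such likeness is common: 1066 genes had a Pearson r of at least 0.95, and genes are not independent of each other.

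Total thymocyte markers summed to 14155 and 10668 CPM in the KOs, against 13844 and 13611 CPM in the wild types. Summed markers of mature single-positive thymocytes stood at 1045 and 701 CPM in the KOs, against 963 and 1020 CPM in the wild types. Double-positive markers stood at 15595 and 11931 CPM in the KOs, against 15944 and 15373 CPM in the wild types. KO replicate 2, which had the lowest heavy-chain values, was lowest in each of these thymocyte sums. The B cell, erythroid and interferon response sums given below were lowest there too, by gaps of unlike size. Its myeloid sum lay above both wild types, and its sum for epithelium and stroma was the highest. Of the 10 mature single-positive markers, 2 lay higher and 8 lower, with a median log2 fold change of -0.22. That median stood at -0.59 without KO replicate 1 and turned to 0.08 without KO replicate 2. Of the 10 double-positive markers, 3 lay higher and 7 lower, with a median of -0.15. Of the 8 total thymocyte markers, 4 lay higher and 4 lower, with a median of -0.10. Without KO replicate 1 and 2 in turn, the medians were -0.34 and 0.03 for double-positive and -0.37 and 0.04 for total thymocyte markers. Single markers did not all follow the thymocyte sums. Rag2, which acts in receptor gene assembly, had 491 and 570 CPM in the KOs, against 340 and 335 CPM in the wild types. Cd3e, a chain of the T cell receptor complex, had 226 and 357 CPM, against 120 and 178 CPM. Ccr9, a chemokine receptor of thymocytes, had 1568 and 868 CPM in the KOs, against 1955 and 1951 CPM in the wild types. None of the 3 passed the edgeR test, at adjusted p-values of 0.377, 0.470 and 0.486.

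The 23 interferon response genes summed to 1112 and 851 CPM in the KOs, against 997 and 1015 CPM in the wild types. Of these, 16 lay higher and 7 lower, with a median log2 fold change of 0.16 that turned to -0.09 without KO replicate 1. Among them Rsad2 and Ifi44 stood at log2 fold changes of 0.59 and 0.72. Markers of epithelium and stroma were highest in KO replicate 2, at 261 and 360 CPM in the KOs, against 272 and 268 CPM in the wild types, with Epcam at a log2 fold change of 0.82. Of these 12 markers, 11 lay higher and 1 lower. Their median of 0.19 moved to 0.74 without KO replicate 1 and to -0.28 without KO replicate 2. Myeloid markers stood at 168 and 166 CPM in the KOs, against 150 and 145 CPM in the wild types, with Csf1r and Cd68 at 0.58 and 0.74 on the log2 scale, and B cell markers at 48.1 and 39.9 CPM, against 41.7 and 44.4 CPM. Erythroid markers summed to 460 and 93.7 CPM in the KOs, against 146 and 129 CPM in the wild types, so KO replicate 1 stood far above the rest. All 5 of these tested lay higher, with a median log2 fold change of 0.93, the value of Slc4a1, or 0.16 without KO replicate 1. The single markers named here had unadjusted edgeR p-values under 0.05 and none passed after adjustment. Every marker of these lists found in the files had reads in each library, and their part in the values of the 6 genes was not tested. In RNA from whole preparations, fewer cells of a type and less RNA per cell cannot be told apart.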

How the data were processed

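Total thymocyte RNA of 2 hnRNP L KO and 2 wild-type mice was depleted of ribosomal RNA and sequenced, per the labels' protocols. The authors deposited raw read counts per RefSeq transcript and per exon-exon junction, marked known or putative. Only primary alignments entered the counts, at a mapping quality of 10 or more, per the file headers. Deposited RPKM values were recomputed from reads, length and mapped reads and matched within a relative 0.001 for all 28283 transcripts. The deposited coverage signal, reads per base, was not used. Per the submitters' processing notes the build is mm9. The sources used here name no aligner and do not say how strand was handled, so reads of overlapping genes cannot be told apart.

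The transcript with the most reads stood for each gene. Counts were tested with edgeR 4.0.16 (robust quasi-likelihood, TMM, edgeR's low-count filter by group, Benjamini-Hochberg adjustment over all genes, threshold 0.05) in R 4.3.3, after tests on simulated data. All 6 members passed the filter. Junction usage was tested with diffSpliceDGE on junctions of at least 10 reads, in genes with at least 2 such junctions. DESeq2 1.42.0, limma 3.58.1 (voom), other scalings and filters, and leaving out each library were the alternatives. Standard errors are the size of the fold change over the square root of F. Intervals are exact Clopper-Pearson at 95%, 0 reads are read as a limit of 3, and both cover counting error only. Promoters are RefSeq's (GRCm38.p6), with 5 of 6 members matched; GENCODE M21 gave transcripts for identity and shared windows. Named beside the members were list genes with a log2 fold change of at least 0.58 in size and an unadjusted p under 0.05, Psmb8, Psmb9, Nlrc5, Tapbpl, Erap1, Calr, Canx, Pdia3 and the 5 genes of nearest profile. H2-T23 without KO replicate 1 and the motifs shared with H2-Q4 and H2-Q7 were singled out after their values were seen. The members and lists were chosen with earlier results of these data known.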

Additional observations from a re-analysis of the deposited data

How the results depend on the processing

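The log2 fold changes of H2-K1, H2-D1, B2m, Tap1 and Tapbp kept their sign under each alternative run, on transcript and on junction reads. Tap2 turned to 0.0073 under upper-quartile scaling and, on junction reads, ranged from -0.090 to 0.00078 with 1 library left out, the highest value being that without KO replicate 2. With transcript reads, 1 gene of 13733 was called, against 113 by DESeq2, 62 with no filter on low counts, 3 without small RNA genes, and 0 under limma-voom, upper-quartile scaling, no robust moderation or summed transcript rows. Leaving out 1 library gave 2 to 427 genes and 0 to 2 members called. On junction reads this gave 12 to 81 genes, against 3, and 0 to 1 members. Junctions called for usage numbered 4, against 1 by limma-voom, 2 among known junctions and 3 to 12 with 1 library left out. With a term pairing mice by replicate number (replicate block), edgeR called 121 genes and 0 members on transcript reads, and 123 genes and 1 member on junction reads, H2-K1, at -0.86 with an adjusted p of 0.000101. The labels do not say that equal numbers pair mice, and the replicate differences of the KOs and the wild types correlated at 0.259 over genes. On junction reads, log2 differences between KO and wild type in H2-D1 over B2m, H2-K1 over H2-D1, Tap1 over Tap2 and Tapbp over Tap1 stood at -0.10, -0.47, -0.16 and 0.72, against -0.38, -0.22, -0.08 and 0.37 on transcript reads. The cause of these shifts was not tested. The medians of the gene lists with 1 library left out were added after seeing the data. Depth limits the junctions: Tapbp's acceptors had 4 to 24 reads per library.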
